A study of Mus musculus with 8 samples.

Results

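The genes described here are those of the mitochondrial chromosome, whose symbols start with mt-, and 17 nuclear genes for the proteins that copy mitochondrial DNA, transcribe it, and cut, guard or degrade its RNA. They were chosen by symbol and by a list of names, with no threshold on their values, but with earlier results of these data known. Of the 16896 genes in any of the 4 deposited tables, 40 are members, 23 of them mt- genes and 17 nuclear. The mitochondrial chromosome has 37 annotated genes, so 14 were in none of the tables, namely 13 transfer RNAs and mt-Atp8. All 12 other protein-coding genes, both ribosomal RNAs and 9 of the 22 transfer RNAs were measured. The tables share 20 of the 23 mt- genes and all 17 nuclear genes.

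The assay was TT-seq of E14 mouse embryonic stem cells, in which RNA made during a pulse of 5 min with 500 nM 4-thiouridine (a uridine analogue) is pulled out and sequenced. The cells carried a lysine-to-alanine change in histone H3.3, named K122A in the series' title, in some or none of the 4 alleles of H3f3a and H3f3b. Of the 3 dual-targeted lines, each with 3 mutant alleles and 1 wildtype allele, 2 were clones with H3f3a A/A and H3f3b WT/A, called the clones here, and the third had H3f3a WT/A and H3f3b A/A. Of the 2 single-targeted lines, each with 2 mutant alleles, one had H3f3a A/A with H3f3b WT/WT and the other H3f3a WT/WT with H3f3b A/A. Wildtype cells, unedited at both genes, were profiled as 3 biological replicates. Each mutant line gave 1 library, which makes the spread of a mutant group one between cell lines, while that of wildtype is between biological replicates. The labels describe medium with LIF and medium with LIF and 2 kinase inhibitors and do not say which these cells grew in.

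The files are the authors' deposited tables of 4 comparisons. The dual-targeted lines, the single-targeted lines and the clones were each compared with wildtype cells, and dual-targeted with single-targeted lines. A fold change is given on the log2 scale ± its standard error, positive where the group named first is higher, with genes called where the adjusted p was under 0.05. The deposited fold changes are smaller than their p-values imply, for 100% of called genes in each table. They are therefore read as shrunken towards 0, most for genes of wide spread, and sizes in different tables are not strictly comparable. No value per library was used. The level of a gene in a group was solved from the mean normalized counts of the 4 tables and the number of libraries in each, so it has no error, no test and no view of whether libraries of different groups overlap. The 9 embryonic stem cell markers listed, such as Pou5f1, were all measured, with mean counts from 419 to 4211 by the authors' deposited table of dual-targeted against wildtype, while 2 of 9 fibroblast markers were, at 13.9 and 25.2. All 5 neural markers listed were measured there, at 45.5 to 162, with 2 of 5 endoderm markers, at 8.04 and 13.9. Of 4 mesoderm markers 1 was measured, at 36.2. The neural genes Nes (1.91 ± 0.85, adjusted p = 0.00802) and Tubb3 (1.07 ± 0.28, adjusted p = 2.79e-04) were called higher in dual-targeted lines by that table. So were 5 of the 9 embryonic stem cell markers, beside 10.8% of all genes. The other neural markers were not called there, with Sox1 at -0.32 ± 0.37, Pax6 at -0.33 ± 0.24 and Map2 at -0.09 ± 0.28. In the clones Pax6 was called lower (-0.58 ± 0.27, adjusted p = 0.0429) by the authors' deposited table. Neither H3f3a nor H3f3b was called in the dual-targeted or single-targeted comparison with wildtype by the authors' deposited tables. In the clones H3f3b was called higher (0.84 ± 0.27, adjusted p = 0.00351) and H3f3a was not (0.17 ± 0.22, adjusted p = 0.589) by the authors' deposited table. Solved H3f3b was 4852 in the clones, 1886 in single-targeted lines and 2511 in wildtype cells. For the third line it came out at 361.7, a value that depends on the scaling of the tables, since it fell below 0 without it.

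In mammals both strands of the circular mitochondrial DNA are transcribed as long precursors that start in or near a non-coding control region. The mitochondrial RNA polymerase Polrmt starts with the help of Tfam and Tfb2m. Most transfer RNAs lie between the longer genes, and their excision, by RNase P at the 5' end and Elac2 at the 3' end, frees the messenger and ribosomal RNAs. On the reference plus strand transcription passes the ribosomal RNAs first and mt-Cytb last, while the minus strand carries mt-Nd6 and a minority of the transfer RNAs. Of the measured mt- genes, 18 lie on the plus and 5 on the minus strand.

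The transfer RNAs are shown because they mark the order of the genes and because most of those measured rose in the mutant lines. The sequences, read on the strand of the gene from the GENCODE transcripts of mouse release 21 (build GRCm38), have the anticodon in capitals. The plus-strand genes mt-Tl1 (chrM:2676-2750, leucine), mt-Ti (chrM:3706-3774, isoleucine), mt-Tm (chrM:3845-3913, methionine), mt-Tw (chrM:4950-5016, tryptophan) and mt-Tt (chrM:15289-15355, threonine) come first, then the minus-strand genes mt-Tq (chrM:3772-3842, glutamine), mt-Te (chrM:14071-14139, glutamate) and mt-Tp (chrM:15356-15422, proline).
mt-Tl1: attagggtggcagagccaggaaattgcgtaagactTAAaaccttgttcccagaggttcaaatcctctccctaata
mt-Ti: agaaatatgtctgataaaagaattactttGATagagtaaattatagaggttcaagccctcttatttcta
mt-Tm: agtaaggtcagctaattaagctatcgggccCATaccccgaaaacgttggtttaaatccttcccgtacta
mt-Tw: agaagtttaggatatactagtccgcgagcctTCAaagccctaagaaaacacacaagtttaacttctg
mt-Tt: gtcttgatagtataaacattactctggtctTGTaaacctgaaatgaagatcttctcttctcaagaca
mt-Tq: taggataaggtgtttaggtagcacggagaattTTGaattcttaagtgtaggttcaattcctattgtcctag
mt-Te: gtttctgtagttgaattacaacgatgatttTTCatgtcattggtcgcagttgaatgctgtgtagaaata
mt-Tp: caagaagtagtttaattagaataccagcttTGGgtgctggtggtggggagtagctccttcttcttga
The anticodon was located in each gene by the stem that closes its loop. The genes are 67 to 75 bases long and meet or overlap their neighbours: mt-Ti shares bases with mt-Nd1 upstream and, on the other strand, with mt-Tq, and mt-Tt ends at base 15355 where mt-Tp of the other strand begins at 15356. The sources used here do not give whether reads were counted by strand, so reads of overlapping genes on opposite strands cannot be told apart. If strand was not used, reads of the opposite precursor would count in any gene it passes, not only where genes overlap.

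Many transcripts of the mitochondrial chromosome were higher in both mutant groups than in wildtype cells, and 0 were called lower. In the authors' deposited table of dual-targeted against wildtype, 10 of the 19 mt- genes with an adjusted p rose and 0 fell, where 20.9% of all genes tested were called, 10.8% higher and 10.1% lower. In that of single-targeted against wildtype, 13 of 21 rose and 0 fell, where 2.96% of all genes were called, 1.49% higher and 1.47% lower. The authors' deposited table of the clones against wildtype had 8 of 20 higher and 0 lower, where 9.05% of all genes were higher and 10.3% lower, 19.3% in all. These comparisons share the wildtype libraries, so an unusual wildtype level would enter all of them. Ranked by deposited fold change among 11686 genes whose mean count was at least 50, mt-Ti was at rank 1, mt-Tl1 at rank 3 and mt-Tm at rank 4 in single-targeted lines against wildtype. Among the 11561 such genes in dual-targeted lines against wildtype, mt-Ti was at rank 20 and mt-Tw at rank 37.

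Summed over the 20 shared mt- genes, the solved mean normalized count was 188381 in dual-targeted lines, 267179 in single-targeted lines and 63317 in wildtype cells. The sum was thus 2.98-fold that of wildtype in dual-targeted and 4.22-fold in single-targeted lines. These sizes depend on the scaling of the tables. Summed over the transfer RNA and protein-coding genes alone, the log2 ratio to wildtype was 1.54 in dual-targeted and 2.08 in single-targeted lines. Without the scaling it was 1.18 and 1.76. As a share of the normalized counts of all genes found in all 4 tables it was 1.29% in dual-targeted lines, 2.53% in single-targeted lines and 0.594% in wildtype cells. A large share of those counts belongs to the chromosome 17 loci Gm26917 and Gm42418, which rose by 0.89 ± 0.23 (adjusted p = 2.55e-04) and 0.86 ± 0.25 (adjusted p = 0.00154) by the authors' deposited table of dual-targeted against wildtype. Without these loci the share was 2.55% in dual-targeted lines, 3.69% in single-targeted lines and 0.910% in wildtype cells. More mitochondrial genomes per cell and more labelled RNA per genome cannot be told apart in these bulk libraries.

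**Figure D1:**
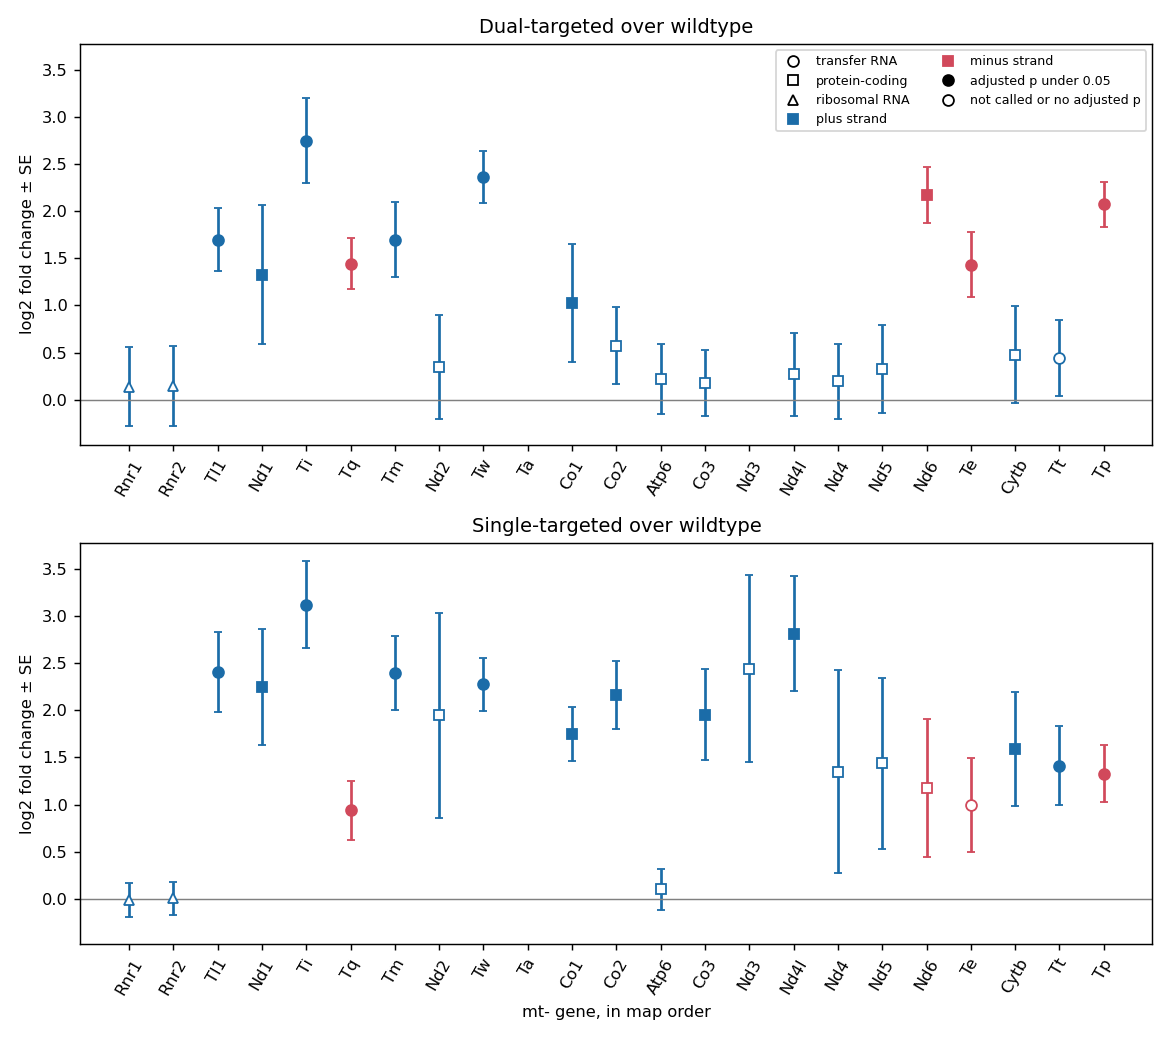
Deposited log2 fold change ± standard error of each mt- gene in the order of the mitochondrial chromosome, dual-targeted against wildtype above and single-targeted against wildtype below; circles are transfer RNAs, squares protein-coding genes and triangles ribosomal RNAs, blue on the plus and red on the minus strand, filled at an adjusted p under 0.05 and open otherwise. In the upper panel the called genes lie up to mt-Co1 or on the minus strand, while in the lower panel called plus-strand genes continue to mt-Tt.

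Beside 10.8% and 1.49% of all genes, 7 of the 8 transfer RNAs compared with wildtype rose in the dual-targeted and 7 in the single-targeted group. Their median fold change was 1.70 by the authors' deposited table of dual-targeted against wildtype and 1.84 in that of single-targeted against wildtype, where the medians of all genes were 0.01 and 0.00. Nuclear genes with at most 100 bases of exon had medians of 0.05 (n = 172) and -0.01 (n = 162) in these tables, of which 8 and 0 rose. The exception was mt-Tt in the dual-targeted and mt-Te in the single-targeted group. Reads of a free transfer RNA and of an uncut precursor that spans it cannot be told apart in these data. How reads touching adjoining genes were counted was not analysed here. These values are thus counts at the genes and not levels of mature transfer RNA.

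The gene mt-Ti, for the transfer RNA of isoleucine, had the highest deposited fold change of any mt- gene in both groups. Its solved mean normalized count was 103.5 in dual-targeted lines, 133.1 in single-targeted lines and 14.7 in wildtype cells. The authors' deposited tables give 2.75 ± 0.45 (adjusted p = 6.14e-09) for dual-targeted and 3.12 ± 0.46 (adjusted p = 2.5e-09) for single-targeted against wildtype. It lies downstream of mt-Nd1 and overlaps its last bases. The leucine gene mt-Tl1, which follows directly on mt-Rnr2, had solved means of 103.2 in dual-targeted lines, 172.5 in single-targeted lines and 30.4 in wildtype cells. Its fold changes by the authors' deposited tables were 1.70 ± 0.34 (adjusted p = 1.52e-06) in dual-targeted and 2.40 ± 0.42 (adjusted p = 9.28e-07) in single-targeted lines against wildtype. By solved means mt-Tl1 was 3.39-fold above wildtype in dual-targeted lines, beside 3.49-fold for mt-Nd1 downstream of it and 15.9-fold for mt-Rnr2 upstream. The value of mt-Rnr2 was not tested, rests on the clones and was 10.3-fold without the scaling of the tables. For mt-Tm, the methionine gene just upstream of mt-Nd2, the solved means were 108.5 in dual-targeted lines, 171.2 in single-targeted lines and 31.1 in wildtype cells. The authors' deposited tables give 1.70 ± 0.40 (adjusted p = 3.87e-05) and 2.39 ± 0.39 (adjusted p = 1.15e-07) for dual-targeted and for single-targeted lines against wildtype.

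The tryptophan gene mt-Tw, downstream of mt-Nd2, reached 413.8 in dual-targeted lines and 392.3 in single-targeted lines, against 77.9 in wildtype cells. Its fold changes of 2.36 ± 0.28 (adjusted p = 1e-15) in dual-targeted and 2.27 ± 0.28 (adjusted p = 1.76e-13) in single-targeted lines by the authors' deposited tables were close. Directly compared, dual-targeted and single-targeted lines differed by 0.03 ± 0.20 (adjusted p = 0.906) by the authors' deposited table, which shows no difference in mt-Tw that this error could detect. The last plus-strand transfer RNA, mt-Tt, lies near the far end of the strand. Its solved mean was 51.9 in dual-targeted lines, 93.8 in single-targeted lines and 30.2 in wildtype cells. It was not called in dual-targeted lines (0.45 ± 0.40, adjusted p = 0.199) and rose in single-targeted lines (1.41 ± 0.42, adjusted p = 0.00375), both by the authors' deposited tables against wildtype. Between the mutant groups themselves mt-Tt had -0.24 ± 0.35 (adjusted p = 0.281) by the authors' deposited table, so a difference was not called.

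On the minus strand all 4 genes compared with wildtype rose in the dual-targeted group, where 10.8% of all genes were higher. This strand carries mt-Nd6, a subunit of complex I, and on the way from the control region the transfer RNAs mt-Tp and mt-Te before it and mt-Tq after it. Per kilobase of gene, mt-Nd6 had the highest solved level of all mt- genes, with 106279 in dual-targeted lines, 71960 in single-targeted lines and 22344 in wildtype cells. Its solved means of 55159 in dual-targeted lines, 37347 in single-targeted lines and 11596 in wildtype cells are 4.76-fold and 3.22-fold the wildtype level. The authors' deposited tables give 2.17 ± 0.30 (adjusted p = 3.57e-12) in dual-targeted lines and 1.17 ± 0.73 (adjusted p = 0.0872) in single-targeted lines against wildtype. The value for single-targeted lines missed the threshold, and its standard error was the wider one.

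For mt-Tp, the minus-strand gene closest to the control region, solved means were 950.7 in dual-targeted lines, 598.7 in single-targeted lines and 217.4 in wildtype cells. It rose by 2.07 ± 0.24 (adjusted p = 1e-16) in dual-targeted and by 1.33 ± 0.30 (adjusted p = 1.7e-04) in single-targeted lines by the authors' deposited tables. The solved means of mt-Te were 136.1 in dual-targeted lines, 114.9 in single-targeted lines and 44.9 in wildtype cells. It rose by 1.43 ± 0.34 (adjusted p = 6.72e-05) in dual-targeted lines, and had 0.99 ± 0.50 (adjusted p = 0.057) in single-targeted lines, by the authors' deposited tables against wildtype. The glutamine gene mt-Tq had 383.3 in dual-targeted lines, 288.1 in single-targeted lines and 132.4 in wildtype cells. Its rise was 1.44 ± 0.27 (adjusted p = 6.36e-07) in dual-targeted and 0.94 ± 0.31 (adjusted p = 0.0102) in single-targeted lines by the authors' deposited tables. All 4 minus-strand genes were higher in dual-targeted than in single-targeted lines by solved means, by 1.18-fold to 1.59-fold. Directly compared, mt-Tp was called higher in dual-targeted lines (0.54 ± 0.24, adjusted p = 0.0463) by the authors' deposited table, while mt-Nd6, mt-Te and mt-Tq were not called. The fifth minus-strand gene, mt-Ta, stood only in the authors' deposited table of dual-targeted against single-targeted, with -0.11 ± 0.27 and no adjusted p.

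Because 4-thiouridine enters RNA in place of uridine, the share of T in the gene's strand was counted. It ran from 32.8% to 43.7% (median 36.6%) in the 5 measured minus-strand genes, highest in mt-Nd6, and from 23.9% to 34.8% (median 29.1%) in the 18 plus-strand genes. The part of this base composition in the levels was not tested.

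**Figure D2:**
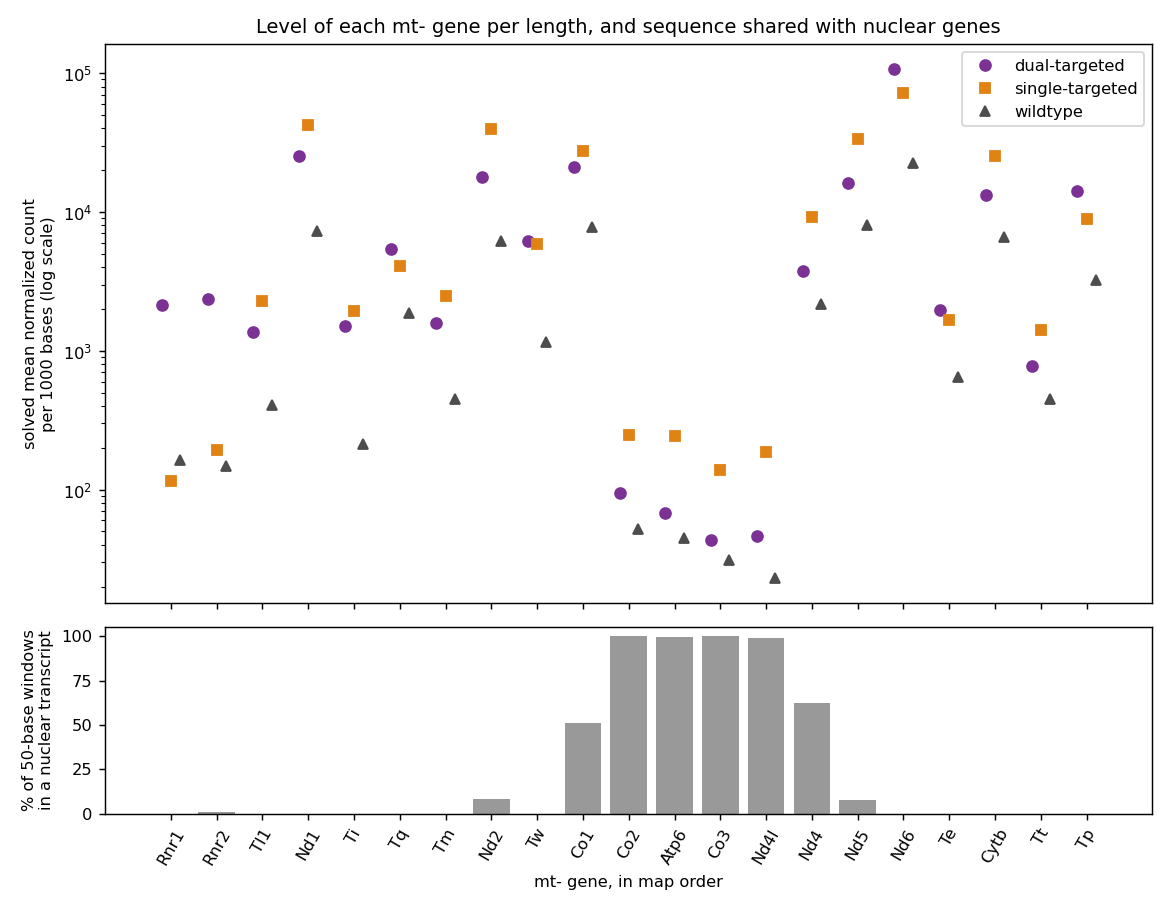
Solved mean normalized counts per kilobase (log axis) of the mt- genes along the chromosome in dual-targeted lines, single-targeted lines and wildtype cells, above a panel of the share of each gene's 50-base windows that also occurs in an annotated nuclear transcript. The genes from mt-Co2 to mt-Nd4l, where at least 98.0% of windows are shared, lie far below their neighbours in all 3 groups.

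The protein-coding genes encode subunits of respiratory complexes, with the mt-Nd genes in complex I, mt-Cytb in complex III, the mt-Co genes in complex IV and mt-Atp6 in the ATP synthase. In dual-targeted lines 3 of 11 rose, namely mt-Nd1, mt-Co1 and mt-Nd6, beside 10.8% of all genes. The median fold change of the 11 by the authors' deposited table was 0.35. In single-targeted lines 6 of 11 with an adjusted p rose, beside 1.49% of all genes, and the median over the 12 measured was 1.85 by the authors' deposited table. Those 6 were mt-Nd1, mt-Co1, mt-Co2, mt-Co3, mt-Nd4l and mt-Cytb. The gene mt-Nd3 stood in the authors' deposited table of single-targeted against wildtype alone, with 2.44 ± 0.99 and no adjusted p.

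The first of them on the strand, mt-Nd1, had solved means of 24236 in dual-targeted lines, 40217 in single-targeted lines and 6943 in wildtype cells. It rose by 1.32 ± 0.74 (adjusted p = 0.0217) in dual-targeted and by 2.25 ± 0.62 (adjusted p = 0.00175) in single-targeted lines by the authors' deposited tables. The core oxidase subunit gene mt-Co1 had 32416 in dual-targeted lines, 42638 in single-targeted lines and 12001 in wildtype cells. Its rises by the authors' deposited tables were 1.03 ± 0.62 (adjusted p = 0.0389) in dual-targeted and 1.75 ± 0.29 (adjusted p = 1.21e-07) in single-targeted lines. Without the third line, that is in the authors' deposited table of the clones, neither was called, at 1.00 ± 1.04 (adjusted p = 0.0777) for mt-Nd1 and 0.80 ± 0.78 (adjusted p = 0.101) for mt-Co1. For mt-Nd2, between them, the solved means were 18535 in dual-targeted lines, 41068 in single-targeted lines and 6454 in wildtype cells. It was not called in either group, with 0.35 ± 0.55 (adjusted p = 0.183) in dual-targeted and 1.95 ± 1.09 (adjusted p = 0.0672) in single-targeted lines by the authors' deposited tables. On the log2 scale the solved level of mt-Nd2 lay 1.52 above wildtype in dual-targeted and 2.67 above it in single-targeted lines, more than the shrunken values.

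Further along, mt-Nd5 had solved means of 29461 in dual-targeted lines, 61198 in single-targeted lines and 14708 in wildtype cells. It was not called against wildtype, with 0.32 ± 0.47 (adjusted p = 0.292) in dual-targeted and 1.43 ± 0.90 (adjusted p = 0.0848) in single-targeted lines by the authors' deposited tables. For mt-Cytb the solved means were 15259 in dual-targeted lines, 29122 in single-targeted lines and 7583 in wildtype cells. It rose in single-targeted lines (1.59 ± 0.61, adjusted p = 0.0198) and had 0.48 ± 0.51 (adjusted p = 0.179) in dual-targeted lines by the authors' deposited tables. The solved means of mt-Nd4 were 5171 in dual-targeted lines, 12763 in single-targeted lines and 2971 in wildtype cells. It was called in neither group, with 0.19 ± 0.40 (adjusted p = 0.473) in dual-targeted and 1.35 ± 1.08 (adjusted p = 0.103) in single-targeted lines by the authors' deposited tables.

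Read by position on the plus strand, without the ribosomal RNAs, the calls against wildtype ended at mt-Co1 in dual-targeted lines and ran on past it in single-targeted lines. Up to and including mt-Co1, 6 of 7 genes rose in dual-targeted lines, with a median of 1.70, and 6 of 7 rose in single-targeted lines, with a median of 2.27, by the authors' deposited tables. After mt-Co1, 0 of 8 genes rose in dual-targeted lines by the DESeq2 adjusted p of the authors' deposited table (1 had an unadjusted p under 0.05), with a median of 0.29. Of the 8 genes after mt-Co1 with an adjusted p, 5 rose in single-targeted lines, with a median of 1.59 over the 9 measured, by the authors' deposited table. Of all genes tested, 10.8% were higher in dual-targeted and 1.49% in single-targeted lines. The 0 of 8 in dual-targeted lines is thus near the share of all genes. By solved means the dual-targeted lines were 2.70-fold to 7.05-fold above wildtype up to mt-Co1 and 1.38-fold to 2.01-fold after it, ranges that do not overlap. In single-targeted lines these ranges were 3.55-fold to 9.07-fold and 3.10-fold to 8.10-fold, which do. The split at mt-Co1 was chosen with the values known, so it is a description.

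Against single-targeted lines, the dual-targeted lines had 1 of 19 mt- genes higher and 5 lower by the authors' deposited table, where 7.06% of all genes tested were called, 4.37% higher and 2.69% lower. The gene that was higher was mt-Tp (0.54 ± 0.24, adjusted p = 0.0463). The 5 that were lower, mt-Co2, mt-Atp6, mt-Co3, mt-Nd4l and mt-Nd5, all lie after mt-Co1 on the plus strand. Leaving out the ribosomal RNAs, 0 of 7 genes up to mt-Co1 and 5 of 8 after it were lower (0 of the 7 also at an unadjusted p under 0.05, DESeq2). Of 17 plus-strand genes 14 had a fold change below 0 in this table, the exceptions being mt-Tw and the ribosomal RNAs, and of 5 minus-strand genes 4 were above 0. Strand here is that of the gene, since the strand of the reads is not known. The values for the lower genes were -1.12 ± 0.45 (adjusted p = 0.0198) for mt-Co2, -1.52 ± 0.57 (adjusted p = 0.0141) for mt-Atp6 and -1.32 ± 0.56 (adjusted p = 0.0224) for mt-Co3 by the authors' deposited table. For mt-Nd4l the authors' deposited table gives -1.54 ± 0.71 (adjusted p = 0.0274) and for mt-Nd5 -0.78 ± 0.40 (adjusted p = 0.0495). The called values sit close to the threshold: at an adjusted p under 0.01, 0 mt- genes differed between the mutant groups by DESeq2, while 8 had an unadjusted p under 0.05.

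**Figure D3:**
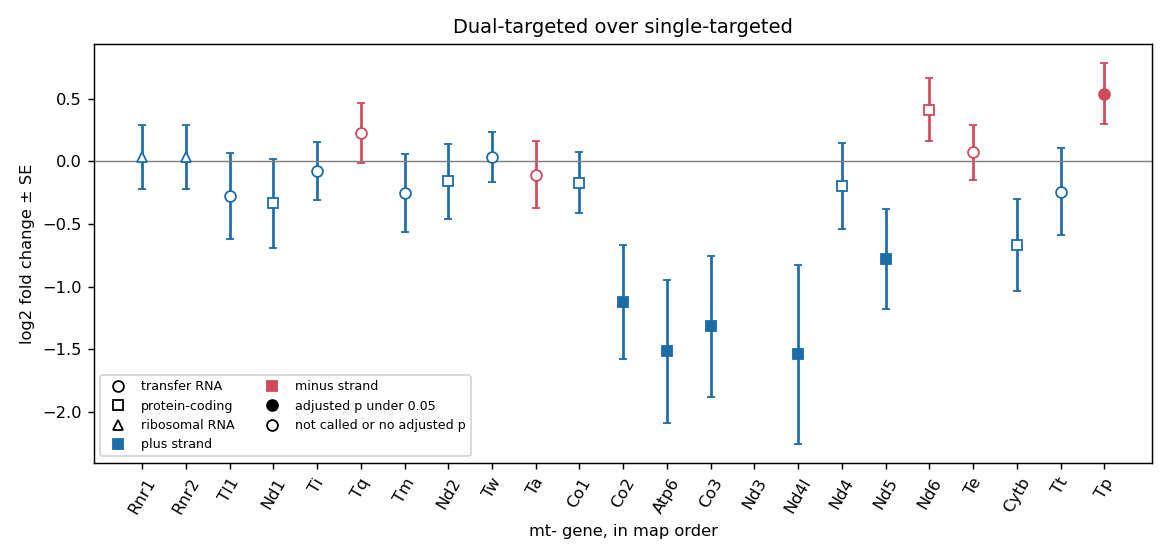
Deposited log2 fold change ± standard error of dual-targeted against single-targeted lines for each mt- gene in chromosome order, with strand in blue (plus) and red (minus), and filled marks at an adjusted p under 0.05. The plus-strand genes after mt-Co1 lie below 0 and mt-Tp, on the minus strand, lies at 0.54.

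The stretch from mt-Co2 to mt-Nd4l needs to be read with its nuclear copies. Of the 50-base windows of each gene, 100% of mt-Co2, 99.5% of mt-Atp6, 99.9% of mt-Co3, 98.0% of mt-Nd3 and 98.8% of mt-Nd4l also occur in annotated nuclear transcripts. Most of these copies lie side by side on chromosome 1, between bases 24611535 and 24616197 of GRCm38, in the pseudogenes Gm28439, Gm10222, Gm28438, Gm28437, Gm10925, Gm28661 and Gm29216. The share was 62.2% for mt-Nd4, 51.1% for mt-Co1, 8.19% for mt-Nd2, 7.61% for mt-Nd5 and 1.04% for mt-Rnr2, and 0 for the other measured mt- genes. The 4 of these genes with solved levels had 23.1 to 52.1 per kilobase in wildtype cells, beside 7768 for mt-Co1 and 8063 for mt-Nd5. Also per kilobase in wildtype cells, mt-Nd4 had 2156, mt-Nd1, which shares none, 7255, and mt-Rnr1 and mt-Rnr2 164.5 and 147.5. The part of the shared sequence in these levels was not tested. Nuclear sequence outside annotated transcripts was not searched, so a share of 0 does not show that a gene lacks nuclear copies. In single-targeted lines the ribosomal RNAs, at 115.5 and 192.6, lay below mt-Co2 (247.6) and mt-Atp6 (244.7). The sources used here do not give how reads that match both places were counted, so the values of these 5 genes are uncertain.

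Low counts lie behind these genes, and 3 of them were called higher in single-targeted lines. The solved means of mt-Co2 were 64.2 in dual-targeted lines, 169.4 in single-targeted lines and 35.6 in wildtype cells, and it rose in single-targeted lines by 2.16 ± 0.36 (adjusted p = 1.21e-07) by the authors' deposited table. For mt-Co3 the solved means were 33.9 in dual-targeted lines, 108.1 in single-targeted lines and 24.6 in wildtype cells, with a rise of 1.95 ± 0.48 (adjusted p = 4.65e-04) in single-targeted lines by the authors' deposited table. The gene mt-Nd4l, at 13.7 in dual-targeted lines, 55.6 in single-targeted lines and 6.86 in wildtype cells, rose in single-targeted lines by 2.81 ± 0.61 (adjusted p = 8.32e-05) by the authors' deposited table. Beside its solved means of 45.9 in dual-targeted lines, 166.6 in single-targeted lines and 30.5 in wildtype cells, mt-Atp6 had a strongly shrunken 0.10 ± 0.22 (adjusted p = 0.128) for single-targeted against wildtype by the authors' deposited table. None of mt-Co2, mt-Atp6, mt-Co3 and mt-Nd4l was called in dual-targeted lines against wildtype, where their fold changes by the authors' deposited table ran from 0.18 to 0.57.

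Most annotated copies gave values of the same direction. In single-targeted lines 8 of 12 measured copies rose, beside 1.49% of all genes, and in dual-targeted lines 3 of 11 did, beside 10.8%, by the authors' deposited tables. For dual-targeted against single-targeted, 6 of 9 with an adjusted p were lower, beside 2.69% of all genes, by the authors' deposited table. The copy of mt-Co2, Gm28661, was at -1.20 ± 0.45 (adjusted p = 0.0144) and that of mt-Atp6, Gm10925, at -1.70 ± 0.42 (adjusted p = 7.25e-04) for dual-targeted against single-targeted by the authors' deposited table. Reads of the copies and of the mitochondrial genes cannot be told apart in these tables. Restricted to members with under 10% of windows shared, an alternative chosen after the data were seen, the called differences between the mutant groups were mt-Tp and mt-Nd5. After mt-Co1 that left mt-Nd5, mt-Cytb and mt-Tt, of which 0 rose in dual-targeted lines (0 also at an unadjusted p under 0.05, DESeq2) and 2 in single-targeted lines, with medians of 0.45 and 1.43 by the authors' deposited tables.

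The ribosomal RNAs, which lie first on the plus strand, had levels unlike those of the genes after them. The small-subunit gene mt-Rnr1 had a solved mean of 2043 in dual-targeted lines, 110.3 in single-targeted lines and 157.1 in wildtype cells. The large-subunit gene mt-Rnr2 had 3706 in dual-targeted lines, 304.8 in single-targeted lines and 233.3 in wildtype cells. In the dual-targeted group these high means sat in the clones, with 3027 for mt-Rnr1 and 5441 for mt-Rnr2. The third line came out at 73.2 and 237.2, but these low levels depend on the scaling of the tables: without scales they were -217.5 and -278.7, which no count can be, while the clones had 3080 and 5528. The high means thus rest on 1 or both clones, which cannot be told apart from the mean of the pair, and the level of the third line cannot be given. The lower levels of the other groups depend on the scaling too. Without scales mt-Rnr1 was 23.3 in single-targeted lines and 218.7 in wildtype cells, and mt-Rnr2 was 144.1 in single-targeted lines and 347.4 in wildtype cells, which turns the direction of mt-Rnr2 between those groups.

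Both ribosomal RNA genes have an empty p in the authors' deposited tables of dual-targeted against wildtype and against single-targeted. DESeq2 empties the p of a gene with an extreme count in a single library by default; the sources used here do not say whether that setting was used. In the authors' deposited table of the clones against wildtype, mt-Rnr1 had 0.19 ± 0.48 (adjusted p = 0.0694) and mt-Rnr2 0.18 ± 0.47 (adjusted p = 0.06). For single-targeted against wildtype, the authors' deposited table gives -0.01 ± 0.18 (adjusted p = 0.901) for mt-Rnr1 and 0.01 ± 0.18 (adjusted p = 0.957) for mt-Rnr2. Per kilobase, mt-Rnr1 had 115.5 in single-targeted lines and 164.5 in wildtype cells, where mt-Nd1 had 42024 in single-targeted lines and 7255 in wildtype cells. The RNA was drawn out by its 4-thiouridine, and any removal of ribosomal RNA during library preparation was not analysed here, so the level of these genes cannot be compared with that of the messenger RNAs.

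**Figure D4:**
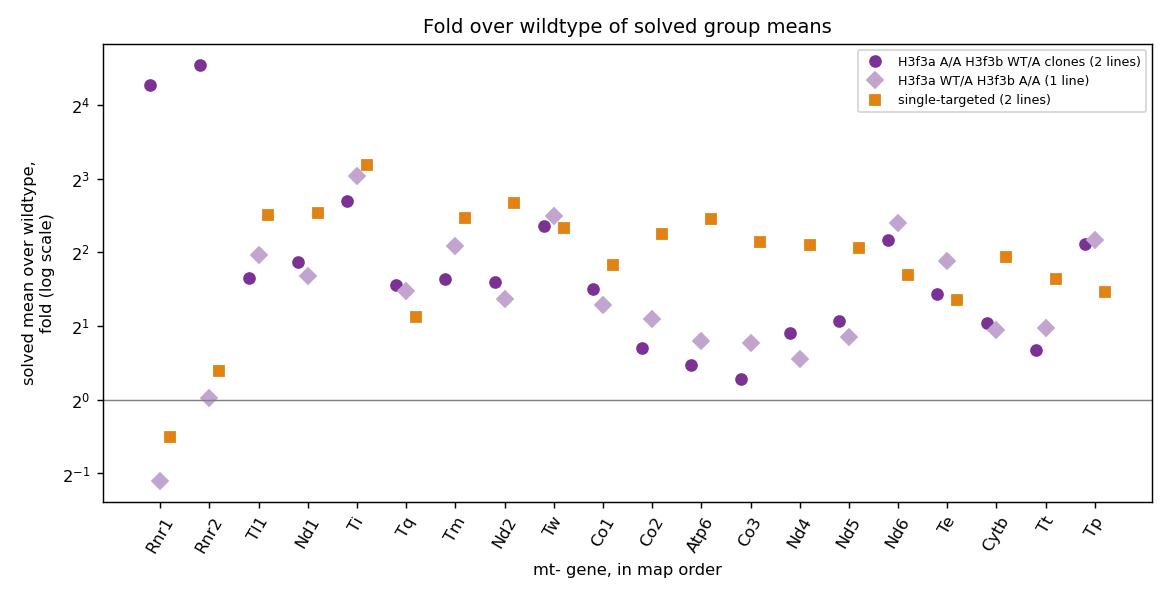
Solved fold over wildtype, on a log2 axis, of each mt- gene in the clones and in the third line (H3f3a WT/A, H3f3b A/A), both of the dual-targeted group, and in single-targeted lines; the values carry no error. The ribosomal RNAs stand apart in the clones, at log2 folds of 4.27 and 4.54. For the other genes the third line was at 0.784 to 1.40 times the clones. The points of the third line depend on the scaling of the tables, for the ribosomal RNAs as for the other genes.

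For the 18 other mt- genes solved, the third line had 0.784 to 1.40 times the level of the clones (median 1.13), above it for 11 genes and below it for 7. These ratios depend on the scaling of the tables too. With it mt-Tp was 980.0 in the third line and 936.1 in the clones. Without it the values were 867.5 and 927.7, which turns the direction. At the ends of this range, mt-Co3 was 1.22-fold above wildtype in the clones and 1.70-fold in the third line, and mt-Nd4 1.88-fold in the clones and 1.47-fold in the third line. For mt-Nd6 the fold over wildtype was 4.50 in the clones and 5.27 in the third line. In the authors' deposited table of the clones, 4 of 4 minus-strand genes rose (median 1.68), 4 of 7 plus-strand genes up to mt-Co1 rose (median 1.46), and 0 of 7 after it were called by DESeq2 (0 also at an unadjusted p under 0.05). Of all genes tested there, 9.05% were higher and 10.3% lower. These clones are also in the dual-targeted group, so the tables share their libraries.

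Of the 17 nuclear machinery genes, 6 rose, 1 fell and 10 were not called in dual-targeted lines against wildtype, beside 10.8% of all genes higher and 10.1% lower, with a median fold change of 0.33 by the authors' deposited table. The 6 rises ran from 0.43 to 0.83, against 1.43 to 2.75 for the transfer RNAs called there. By DESeq2's adjusted p, 0 rose and 0 fell in single-targeted lines, where 1 had an unadjusted p under 0.05 and the median was 0.05 by the authors' deposited table. Of all genes tested there, 1.49% were higher and 1.47% lower, so 0 of 17 is near the share of all genes. In the clones 5 rose and 1 fell by the authors' deposited table, beside 9.05% of all genes higher and 10.3% lower.

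None of the genes that start transcription was called in any comparison. Polrmt, the polymerase, had solved means of 226.9 in dual-targeted lines, 201.9 in single-targeted lines and 227.8 in wildtype cells. Its fold change was 0.00 ± 0.21 (adjusted p = 0.992) in dual-targeted and -0.05 ± 0.16 (adjusted p = 0.867) in single-targeted lines by the authors' deposited tables. Tfam, which packs mitochondrial DNA and helps the polymerase to start, had 866.8 in dual-targeted lines, 740.0 in single-targeted lines and 667.1 in wildtype cells, with 0.33 ± 0.18 (adjusted p = 0.125) for dual-targeted against wildtype by the authors' deposited table. Tfb2m, the initiation factor that melts the promoter, had 0.36 ± 0.20 (adjusted p = 0.133) there, and Tfb1m, which methylates the small ribosomal RNA, -0.05 ± 0.23 (adjusted p = 0.88), both by the authors' deposited table. Mterf3, a repressor of mitochondrial transcription in the mouse, had 0.12 ± 0.19 (adjusted p = 0.666) by the authors' deposited table of dual-targeted against wildtype.

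Of the genes for copying mitochondrial DNA, Twnk and Ssbp1 rose and Polg2 fell in dual-targeted lines. Twnk, the replicative helicase, had 987.1 in dual-targeted lines, 544.8 in single-targeted lines and 637.0 in wildtype cells. It rose by 0.56 ± 0.21 (adjusted p = 0.017) against wildtype and by 0.73 ± 0.28 (adjusted p = 0.0183) against single-targeted lines by the authors' deposited tables, the single machinery gene of 17 called between the mutant groups, where 4.37% of all genes were higher. The single-strand binding protein gene Ssbp1 had 2843 in dual-targeted lines, 2159 in single-targeted lines and 1722 in wildtype cells, and rose by 0.67 ± 0.18 (adjusted p = 7.07e-04) in dual-targeted lines by the authors' deposited table. Polg2, the accessory subunit of the DNA polymerase, had 271.4 in dual-targeted lines, 363.4 in single-targeted lines and 516.0 in wildtype cells, and fell by 0.85 ± 0.20 (adjusted p = 7.09e-05) in dual-targeted lines by the authors' deposited table. In single-targeted lines Polg2 was at -0.33 ± 0.24 (adjusted p = 0.226) by the authors' deposited table. Its catalytic partner Polg was not called, with -0.14 ± 0.17 (adjusted p = 0.563) in dual-targeted lines by the authors' deposited table.

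Among genes for excising transfer RNAs, Elac2 and Trmt10c rose and Hsd17b10 was not called. Elac2, which cuts the 3' ends, had 588.7 in dual-targeted lines, 362.2 in single-targeted lines and 315.6 in wildtype cells. It had the largest rise of the machinery, 0.83 ± 0.22 (adjusted p = 4.27e-04) in dual-targeted lines by the authors' deposited table, and 0.08 ± 0.15 (adjusted p = 0.811) in single-targeted lines. Trmt10c, the methyltransferase subunit of mitochondrial RNase P, had 482.3 in dual-targeted lines, 314.2 in single-targeted lines and 316.6 in wildtype cells. It rose by 0.53 ± 0.21 (adjusted p = 0.0214) in dual-targeted lines by the authors' deposited table. Hsd17b10, the dehydrogenase subunit of the same enzyme, had 0.05 ± 0.22 (adjusted p = 0.88) there by the authors' deposited table.

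Of the genes for RNA stability and decay, Slirp and Fastkd2 rose. Slirp, the small partner of Lrpprc in a complex that holds mitochondrial messenger RNAs, had 265.5 in dual-targeted lines, 209.9 in single-targeted lines and 164.5 in wildtype cells, and rose by 0.59 ± 0.25 (adjusted p = 0.0284) in dual-targeted lines by the authors' deposited table. Lrpprc itself had -0.11 ± 0.17 (adjusted p = 0.673) by the authors' deposited table. Fastkd2, a protein of the mitochondrial RNA granule, rose by 0.43 ± 0.19 (adjusted p = 0.0485) in dual-targeted lines, and was not called in the clones (0.43 ± 0.22, adjusted p = 0.0989), by the authors' deposited tables. The decay genes Pnpt1 and Supv3l1, for the nuclease and the helicase of the degradosome, were at 0.34 ± 0.21 (adjusted p = 0.168) and 0.11 ± 0.18 (adjusted p = 0.666) in dual-targeted lines by the authors' deposited table.

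**Figure D5:**
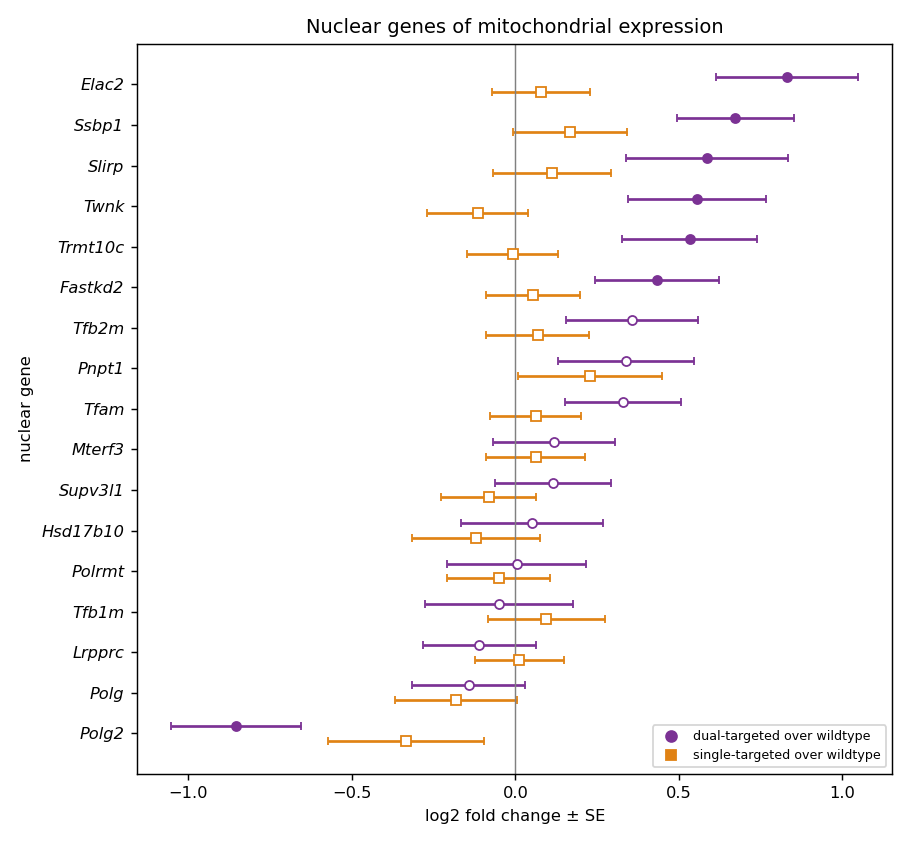
Deposited log2 fold change ± standard error of the 17 nuclear machinery genes, ordered by the dual-targeted fold change from high to low, in dual-targeted and single-targeted lines against wildtype, with filled marks at an adjusted p under 0.05. The 6 rises and 1 fall are in dual-targeted lines and no single-targeted mark is filled.

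Other nuclear genes of mitochondrial gene expression were taken from lists by role. Of 34 further RNA processing and modification genes measured, 5 rose and 0 fell in dual-targeted lines, beside 10.8% of all genes higher and 10.1% lower, with a median of 0.07. By DESeq2's adjusted p 0 changed in single-targeted lines (2 had an unadjusted p under 0.05), beside 1.49% of all genes higher and 1.47% lower, by the authors' deposited tables. Those 5 were Trnt1, which adds the CCA end to transfer RNAs, Trmt61b, Nsun2 and Trmt5, which methylate transfer RNAs, and Mtpap, the mitochondrial poly(A) polymerase. Trnt1 rose by 0.78 ± 0.20 (adjusted p = 4.46e-04) in dual-targeted lines against wildtype by the authors' deposited table, and Trmt5, named after its value was seen, by 0.61 ± 0.23 (adjusted p = 0.0134). Against single-targeted lines, Trnt1 (0.58 ± 0.21, adjusted p = 0.0178) and Nsun2 (0.49 ± 0.20, adjusted p = 0.0356) were higher in dual-targeted lines by the authors' deposited table. Of 6 further transcription genes 1 rose in dual-targeted lines, beside 10.8% of all genes. It was Mterf1a (0.58 ± 0.26, adjusted p = 0.0373) by the authors' deposited table.

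Of 16 further genes for keeping mitochondrial DNA, 0 rose and 3 fell in dual-targeted lines, beside 10.8% of all genes higher and 10.1% lower, by the authors' deposited table. They were Primpol, a primase and polymerase of nucleus and mitochondria (-2.06 ± 0.24, adjusted p = 2e-16), Dguok, which makes deoxynucleotides in mitochondria (-0.93 ± 0.26, adjusted p = 9.47e-04), and Slc25a36, a pyrimidine nucleotide carrier (-0.67 ± 0.23, adjusted p = 0.00778), each from the authors' deposited table. Primpol also fell in single-targeted lines, by 0.74 ± 0.24 (adjusted p = 0.00693) by the authors' deposited table. Primpol lies on chromosome 8, whose 626 genes of mean count at least 50 had a median fold change of -0.32 in dual-targeted lines, where all such genes had 0.01, by the authors' deposited table. In single-targeted lines the 649 such genes of chromosome 8 had a median of -0.21, where all such genes had -0.002. The part of the chromosome in the fall of Primpol was not tested.

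The aminoacyl-transfer RNA synthetase list had 2 of 22 higher (Mars2 and Yars2) and 1 lower (Iars2) in dual-targeted lines, beside 10.8% and 10.1% of all genes, by the authors' deposited table. In single-targeted lines Kars, also on chromosome 8 and named after its value was seen, was the single gene called, at -0.58 ± 0.22 (adjusted p = 0.0223) by the authors' deposited table. Of all genes tested there, 1.47% were lower. The part of the chromosome in the fall of Kars was not tested. Of 12 translation factor genes, 1 rose and 1 fell in dual-targeted lines, beside 10.8% of all genes higher and 10.1% lower. Gfm1 rose by 0.46 ± 0.18 (adjusted p = 0.0286) and Mtfmt, which formylates the initiator methionine, fell by 0.71 ± 0.22 (adjusted p = 0.0029) by the authors' deposited table. Of 9 regulators of mitochondrial biogenesis, 0 were called in dual-targeted and 0 in single-targeted lines by DESeq2, with 1 at an unadjusted p under 0.05 in each, by the authors' deposited tables. Of all genes tested, 20.9% were called in dual-targeted and 2.96% in single-targeted lines.

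Abundant noncoding RNAs made in the nucleus were read for comparison. Of 14 measured, 3 rose (Gas5 and the Gm26917 and Gm42418 loci) and Neat1 fell in dual-targeted lines, beside 10.8% of all genes higher and 10.1% lower, by the authors' deposited table. In single-targeted lines Neat1 fell, by 0.72 ± 0.22 (adjusted p = 0.00411), and 0 rose by the authors' deposited table, beside 1.49% of all genes higher and 1.47% lower. Rn7sk, a short RNA made by RNA polymerase III, had 0.05 ± 0.23 (adjusted p = 0.875) in dual-targeted and -0.01 ± 0.17 (adjusted p = 0.956) in single-targeted lines by the authors' deposited tables.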

How the data were processed

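The 8 TT-seq libraries (3 dual-targeted, 2 single-targeted, 3 wildtype) are represented by 4 tables of the authors' own comparisons. The submitters' processing notes name the tools DESeq2, featureCounts, STAR, SAMtools and deepTools, without versions, and the builds GRCm38.p6 and mm10. The annotation, the use of strand and the shrinkage estimator are not given in the sources used here. Per the file headers, each table holds, averaged by the authors, the normalized count over its libraries, a log2 fold change with its standard error, a p-value and an adjusted p-value, all made by the authors before deposit. An empty adjusted p stayed empty. Values per library were not analysed here, so library depth is unknown and limits precision only through the standard errors of the authors. The tables held 16498, 16255, 16149 and 16254 genes, with sums of mean counts from 1.08e+07 to 1.26e+07.

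Group means were solved from the means of counts, for the 15571 genes in all 4 tables and, without values for the clones and the third line, for mt-Nd4l, which the clones' table lacks. Scales of 0.984, 1.06 and 0.957 set the median of 11558 genes (mean count of 50 or more) equal between groups. The direction of the fold changes was checked on the solved means, with the same sign for 100% of 2726, 380, 875 and 2478 called genes, and 2 genes came out at or under 0 for the third line. The solving was tested on simulated data. Positions, lengths and transcript sequences came from GENCODE mouse release 21 (GRCm38), in which 98.7% of the tables' symbols and all 40 members were found. Windows of 50 bases were matched on either strand.

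A gene was called at the authors' adjusted p under 0.05, adjusted over all genes of the table. Named genes were every mt- gene, the 17 nuclear genes, H3f3a and H3f3b, and up to 4 called members of each other list by adjusted p. The members and lists were chosen with earlier results of these data known. Alternatives were a threshold of 0.01, adjustment over every gene with a p, genes whose mean count was at least 50, removal of the median of all genes or of a length class, solved means in place of fold changes, genes in all 4 tables, no scales, the clones alone, and members with under 10% of shared windows. Computations ran in Python 3.11.15 with pandas 2.3.3, numpy 2.4.6, matplotlib 3.10.9 and scipy 1.17.1.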

Additional observations from a re-analysis of the deposited data

Results flagged for a closer look

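The difference between dual-targeted and single-targeted lines was tested itself by the authors' deposited table of that comparison. Of the 19 mt- genes and 17 nuclear genes with an adjusted p there, 7 differed. Of all genes tested there, 7.06% were called. Lower in dual-targeted lines were mt-Co2 (-1.12 ± 0.45, adjusted p = 0.0198), mt-Atp6 (-1.52 ± 0.57, adjusted p = 0.0141) and mt-Co3 (-1.32 ± 0.56, adjusted p = 0.0224) by the authors' deposited table. In the same authors' deposited table mt-Nd4l was at -1.54 ± 0.71 (adjusted p = 0.0274) and mt-Nd5 at -0.78 ± 0.40 (adjusted p = 0.0495). Higher in dual-targeted lines were mt-Tp (0.54 ± 0.24, adjusted p = 0.0463) and Twnk (0.73 ± 0.28, adjusted p = 0.0183) by the authors' deposited table. Solved fold of dual-targeted over single-targeted lines was 0.247 for mt-Nd4l, 0.276 for mt-Atp6, 0.481 for mt-Nd5, 1.59 for mt-Tp and 1.81 for Twnk.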

How the results depend on the processing

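No called member changed sign when the median of all genes or of the length class was taken out or when solved means were used. Of members not called, 1 of 102, 5 of 102 and 1 of 100 did under these settings, all with log2 values within 0.1 of 0. Without scales the median gene moved by -0.18 in dual-targeted lines, -0.16 in single-targeted lines, -0.06 in the clones and -0.47 in the third line against wildtype (log2), and 72 genes of the third line came out at or under 0, against 2 with scales. Solved levels of called members kept their sign without scales. The sign changed for mt-Rnr2 (-1.27), Tfam (-0.04), Elac2 (-0.04), Fastkd2 (-0.06) and Lrpprc (-0.12) in single-targeted lines, for Supv3l1, Hsd17b10 and Mterf3 in dual-targeted lines, and for mt-Co3 and Polrmt in the clones, none of them called there. The fold of mt-Ti became 4.65 in dual-targeted and 6.03 in single-targeted lines. At an adjusted p under 0.01 the mt- genes called for dual-targeted against single-targeted lines fell to 0, and the nuclear machinery genes called were 3 in dual-targeted lines and 3 in the clones against wildtype (2 higher and 1 lower in each) and 0 for dual-targeted against single-targeted lines. With members of under 10% shared windows, chosen after seeing the data, 2 mt- genes were called for dual-targeted against single-targeted lines (1 higher, 1 lower), since fewer genes enter. On solved means, which are not shrunken, the ribosomal RNA median was 3.85 for dual-targeted lines and 4.41 for the clones against wildtype and 3.91 for dual-targeted against single-targeted lines. The protein-coding median was 1.00, 1.06 and -1.15 for the same comparisons. Without the third line, 8 mt- genes (mt-Nd1 and mt-Co1 lost) and 6 nuclear genes (Fastkd2 lost) were called, and the medians were 1.50 for transfer RNAs, 0.36 for protein-coding genes and 0.19 for ribosomal RNAs. The other replicates could not be left out without values per library. With adjustment over every gene with a p, mt-Nd5 and mt-Tp were no longer called between the mutant groups. No paired analysis was possible because the columns hold no value per library. A mutant group of 2 or 3 lines with 1 library each limits the precision, and the cause of the shifts was not tested.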
